A study of Mus musculus with 15 samples.

Results

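Ileal RNA of mice carrying Ruminococcus gnavus alone was compared with that of mice carrying Lacticaseibacillus rhamnosus GG alone. The 2 groups are the libraries titled RG, from germ-free C57BL/6 mice gavaged with 200 µl of a suspension of R. gnavus, and those titled LGG, from germ-free C57BL/6 mice gavaged with 200 µl of a suspension of L. rhamnosus GG. R. gnavus is an anaerobic, mucin-using member of the human gut microbiota and L. rhamnosus GG is a lactic acid bacterium sold as a probiotic. Each group held 5 mice, 1 library a mouse, so 10 of the 15 libraries of the series enter the comparison. The other 5 libraries, titled PBS, came from germ-free mice gavaged with 200 µl of sterile phosphate-buffered saline, and their values are given only beside those of the colonized mice. All mice were adult and germ-free at gavage, colonization was checked by PCR on faecal DNA per the labels, and the ileum was taken on day 21 after gavage. The labels give no sex, cage, litter or time of day, so the bacterium and the housing of a group cannot be told apart. The 3530 genes compared, of 4178 listed, were those with at least 1 TPM, the unit that gives each transcript's share of a library corrected for its length, in at least 5 of the 15 libraries.

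The ileum is lined by absorptive enterocytes, whose microvilli carry peptidases, disaccharidases and nutrient transporters, and by goblet, tuft and enteroendocrine cells. Paneth cells sit at the base of its crypts and secrete alpha-defensins, lysozyme and other antimicrobial proteins. Bacteria in the lumen are known to act on these cells through pattern recognition receptors, metabolites and the immune cells beneath the epithelium. The labelled tissue was checked only for genes of intestinal epithelium and Paneth cells. The epithelial genes Vil1 and Anpep, the basolateral bile acid exporter subunit Slc51a and the most abundant alpha-defensin, Defa24, were above 100 TPM in every RG and LGG library. The ileal bile acid genes Slc10a2, Fabp6 and Fgf15 were not analysed here, so the position of a piece along the intestine was not checked.

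The largest increases in RG over LGG mice were in Paneth cell products. Many goblet cell and ribosomal protein genes were also higher, by less. With trends of transcript length and GC content removed, the median log2 differences of these 2 lists were 0.25 and 0.17, against -0.51 for all genes. Here an increase or decrease is RG against LGG, not against germ-free mice. Genes lower in RG mice were more numerous and included those of the absorptive enterocyte, from the microvillus to peptide, sugar and lipid uptake, drug metabolism, ion transport and cell junctions, together with output genes of the circadian clock. Of all genes tested, 61.6% changed, and 8.19% were higher in RG than in LGG (289 genes) and 53.5% were lower (1887 genes) at an adjusted p under 0.05 with limma, a linear model fitted across all genes. Differences are given on the log2(TPM + 1) scale as RG minus LGG with their standard error (SE); the added 1 makes differences of scarce transcripts too small. Each difference is followed by ± its SE and each mean TPM by ± its SD over 5 mice. TPM is a share of a library, and the median difference over all genes tested was -0.72. Rescaling each library by median-of-ratios factors brought this median to -0.10 with 1220 genes higher and 592 lower, and upper-quartile factors brought it to -0.07 with 1250 higher and 495 lower. Genes past the threshold in the same direction on all 3 scales were 8.19% of those tested for higher (289 genes) and 13.8% for lower (486 genes), and counts on all 3 scales are given for each gene group. Every RG mouse was above every LGG mouse in 4.08% of all genes, and below in 36.4%. Counts of gene groups are to be read against these shares. Both rescalings moved the median upward, and every gene higher as deposited stayed higher. For higher genes the count on all 3 scales is therefore no further support. It is not comparable with that for lower genes.

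Several measures of whole libraries differed. Alpha-defensins took 12.9% ± 1.48 of all TPM in RG, 1.19% ± 1.04 in LGG and 12.2% ± 1.67 in PBS libraries (SD, n = 5 each; RG against LGG, two-sided exact permutation p = 0.00794, adjusted over 4 measures p = 0.0106, in which 0.00794 is the smallest value that 252 splits allow). Cytosolic ribosomal protein genes took 13.9% ± 1.29 in RG, 8.80% ± 1.11 in LGG and 18.8% ± 2.16 in PBS libraries (same exact p and adjusted p). All listed genes together took 61.3% ± 3.21 in RG, 50.1% ± 1.97 in LGG and 63.8% ± 2.96 in PBS libraries (same exact p and adjusted p). The rest of all TPM lay in genes that are not listed and were not analysed. Mitochondrially encoded genes took 9.55% ± 5.29 in RG, with 18.4% in RG mouse 5, and 6.37% ± 0.680 in LGG libraries (exact p = 0.246). The first principal component of the 10 colonized libraries held 57.5% of their variance and set every RG library (14.1 to 38.5) apart from every LGG library (-47.4 to -16.2). Rank correlations across genes ran from 0.876 to 0.988 between RG mice (median 0.948) and from 0.905 to 0.988 between LGG mice (median 0.969). Pairs of an RG with an LGG mouse ran from 0.847 to 0.969 (median 0.920), so these ranges overlapped. Some libraries stood apart within their group. RG mouse 2 was high in lymphocyte and antigen presentation genes, LGG mouse 4 and, less far, LGG mouse 5 were high in Car1 and other genes known to be strong in colon, and RG mouse 5 was high in mitochondrial transcripts.

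**Figure D1:**
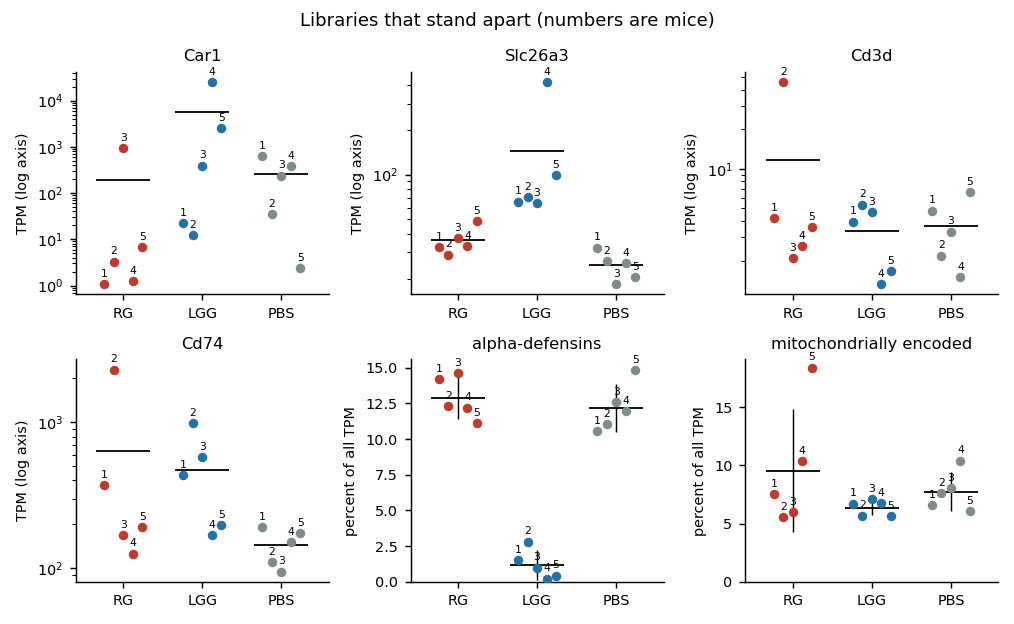
Values in each library of genes or shares that set single libraries apart. The y axes give TPM on a log axis for Car1, Slc26a3, Cd3d and Cd74, and the percent of all TPM for alpha-defensins and mitochondrially encoded genes. Points are mice, numbered, and horizontal lines are group means; vertical lines in the share panels are SD. RG mouse 2 holds 45.5 TPM of Cd3d, LGG mouse 4 holds 25134 TPM of Car1, and RG mouse 5 holds 18.4% mitochondrially encoded transcripts.

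Alpha-defensins form a family of closely related genes on chromosome 8. Of 27 tested, 26 were higher in RG mice and 1, Defa31, was lower, and the count was the same on all 3 scales; the Defa31 transcript is contained in that of Defa23, as given below. The median difference over the 27 was 4.00, against -0.72 over all genes. In 24 of the 26, every RG mouse was above every LGG mouse, which held for 4.08% of all genes, and Defa42 and Defa43 were the exceptions. Fewer Paneth cells and less RNA per Paneth cell cannot be told apart in bulk tissue. Reads that fit several family members cannot be placed with certainty, so the sum over the family is firmer than a single member.

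The promoters of the family are shown because its members moved together with a single exception. The stretches below are from RefSeq on GRCm38.p6 and are aligned on the TATA box. Capitals mark TATAAA and CTTTGAT (or its reverse complement ATCAAAG), the core of the site read by TCF/LEF factors, the nuclear effectors of Wnt signalling. Defa41 had the largest increase, Defa32 was also among the largest, Defa23 and Defa31 had differences of opposite sign, and Defa43 had the smallest increase.
Defa41: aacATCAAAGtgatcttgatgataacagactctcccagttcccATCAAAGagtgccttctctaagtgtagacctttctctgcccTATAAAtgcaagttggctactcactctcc
Defa32: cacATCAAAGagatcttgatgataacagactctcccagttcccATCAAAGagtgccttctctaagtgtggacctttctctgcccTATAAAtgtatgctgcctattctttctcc
Defa23: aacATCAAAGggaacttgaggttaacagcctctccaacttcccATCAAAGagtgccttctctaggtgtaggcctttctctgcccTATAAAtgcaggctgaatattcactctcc
Defa31: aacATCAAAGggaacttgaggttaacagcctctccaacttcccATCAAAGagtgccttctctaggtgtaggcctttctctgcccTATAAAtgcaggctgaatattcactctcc
Defa43: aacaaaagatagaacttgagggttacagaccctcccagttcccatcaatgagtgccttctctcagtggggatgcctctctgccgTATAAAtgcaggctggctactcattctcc
They lie at chr8:21201446-21201558 (plus strand), chr8:21528917-21529029 (plus), chr8:21054923-21055035 (plus), chr8:21191456-21191568 (plus) and chr8:21594511-21594623 (minus). RefSeq promoters were found for 16 of the 27 genes. In the 160 bases before the annotated start, 12 held both motifs on either strand, 9 of them with 2 copies of CTTTGAT spaced by 40 bases. TATAAA alone was present in 3, namely Defa38, Defa42 and Defa43, and CTTTGAT alone in 1, Defa28. The log2 differences of these genes were 3.65, 3.56, 1.75 and 3.51. A link between motif and size of difference was not tested. Windows of the same length held CTTTGAT in 1.96% and TATAAA in 8.01% of all 32851 promoters. Promoters of closely related genes are not independent of each other. A match is a string of letters and not a measured binding site. Defa23 and Defa31 did not differ at any of the 160 bases, while their measured differences were of opposite sign.

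The most abundant member was Defa24 (GRCm38 chromosome 8, 21734494 to 21735471). It stood at 26951, 20779, 26267, 24683 and 25201 TPM in RG mice, against 2989, 5789, 1808, 355 and 789 TPM in LGG mice and 24971 ± 3661 TPM in PBS mice (SD, n = 5), a log2 difference between RG and LGG of 4.00 ± 0.52 (adjusted p = 2.85e-05). The RG mice lay in a narrow band near the germ-free level, and the LGG mice spread widely below it, with mouse 2 highest and mouse 4 lowest. Defa33 had 7137, 5735, 7476, 5787 and 5413 TPM in RG mice and 505, 465, 269, 76.3 and 141 TPM in LGG mice (log2 difference 4.74 ± 0.40, adjusted p = 3.73e-06), and the groups did not overlap. Defa41 (chromosome 8, 21201561 to 21202539) had the largest difference, 6.25 ± 0.52 (adjusted p = 3.73e-06), with 834, 645, 779, 772 and 1824 TPM in RG mice and 15.9, 53.0, 9.51, 3.43 and 4.43 TPM in LGG mice. Defa43 had the smallest increase, with 393, 366, 478, 522 and 566 TPM in RG mice and 224, 517, 137, 39.9 and 71.3 TPM in LGG mice (log2 difference 1.75 ± 0.49, adjusted p = 0.0056). LGG mouse 2 was inside the RG range for this gene and the other 4 LGG mice were below it.

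Defa31 (chromosome 8, 21191614 to 21192549) was listed the other way. It was listed at 0 in all 5 RG mice, against 712, 1078, 922, 184 and 343 TPM in LGG mice, and in PBS mice it was listed at 0 in 4 and at 56.5 TPM in mouse 4. The mice with the most Defa31 were LGG mice 2 and 3, and the RG mice at 0 held 2754 to 6414 TPM of Defa23. How reads were assigned among close copies is not given in the sources used here, and its part in the listed 0 was not tested. The whole Defa31 transcript in GENCODE M21, 377 bases, occurs without a difference inside the Defa23 transcript of 411 bases, so a read inside it fits both genes. Summed, the 2 genes held 5961, 6414, 6240.4, 4384 and 2754 TPM in RG mice and 994, 2112, 1194, 217 and 449 TPM in LGG mice, and every RG mouse was above every LGG mouse. No fold is given for Defa31.

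Paneth cell products outside the family moved in the same direction. Of 17 tested, 11 were higher and 1, Rnase1, was lower on the deposited scale (-0.82, with the call lost without RG mouse 4 or LGG mouse 2, at -0.71 and -0.61). On all 3 scales, 11 were higher and 0 lower. Of all genes, 8.19% were higher on either count. The list holds Defa39 under an older symbol, so Defa39 is counted in both lists. Lyz1, Paneth cell lysozyme (chromosome 10, 117287797 to 117292868), had 10634, 7445, 9470.3, 7224 and 3710.2 TPM in RG mice and 1063, 1587, 664, 162 and 353 TPM in LGG mice, a log2 difference of 3.65 ± 0.48 (adjusted p = 2.84e-05). Mmp7, the protease that activates mouse alpha-defensin precursors, had 418, 397, 427, 500.0 and 200.2 TPM in RG mice and 70.5, 72.2, 52.2, 15.1 and 29.3 TPM in LGG mice (3.14 ± 0.35, adjusted p = 1.21e-05). Neither gene's groups overlapped, and RG mouse 5 was the lowest RG mouse for both.

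Mptx2, a pentraxin made by Paneth cells, had the second largest increase of the named genes, 5.84 ± 0.68 (adjusted p = 1.45e-05). Its values were 1094, 1167, 813, 702 and 575 TPM in RG mice, 20.4, 84.8, 23.5, 2.57 and 3.30 TPM in LGG mice and 587, 242, 182, 164 and 368 TPM in PBS mice. Without LGG mouse 2 the difference was 6.47. Here the RG mice were above the LGG mice, and 4 of them were above all PBS mice. Ang4, an angiogenin with microbicidal activity, had 1414, 1898, 1417, 1139 and 851 TPM in RG mice and 85.8, 222, 109, 16.9 and 32.5 TPM in LGG mice (4.29 ± 0.57, adjusted p = 3.00e-05). Itln1, intelectin, had 1806, 2541, 2608, 1947 and 725 TPM in RG mice and 522, 880.3, 405, 80.8 and 189 TPM in LGG mice (2.50 ± 0.52, adjusted p = 0.000662), and RG mouse 5 fell below LGG mouse 2. Clps, pancreatic colipase, had 171, 225, 219, 122 and 73.1 TPM in RG mice and 24.7, 52.1, 25.3, 10.3 and 6.60 TPM in LGG mice (2.92 ± 0.44, adjusted p = 6.53e-05) without overlap. Habp2, a serine protease, was low in both groups, at 5.22 ± 1.55 TPM in RG and 1.01 ± 0.512 TPM in LGG mice, with a difference of 1.63 ± 0.22 (adjusted p = 2.62e-05).

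**Figure D2:**
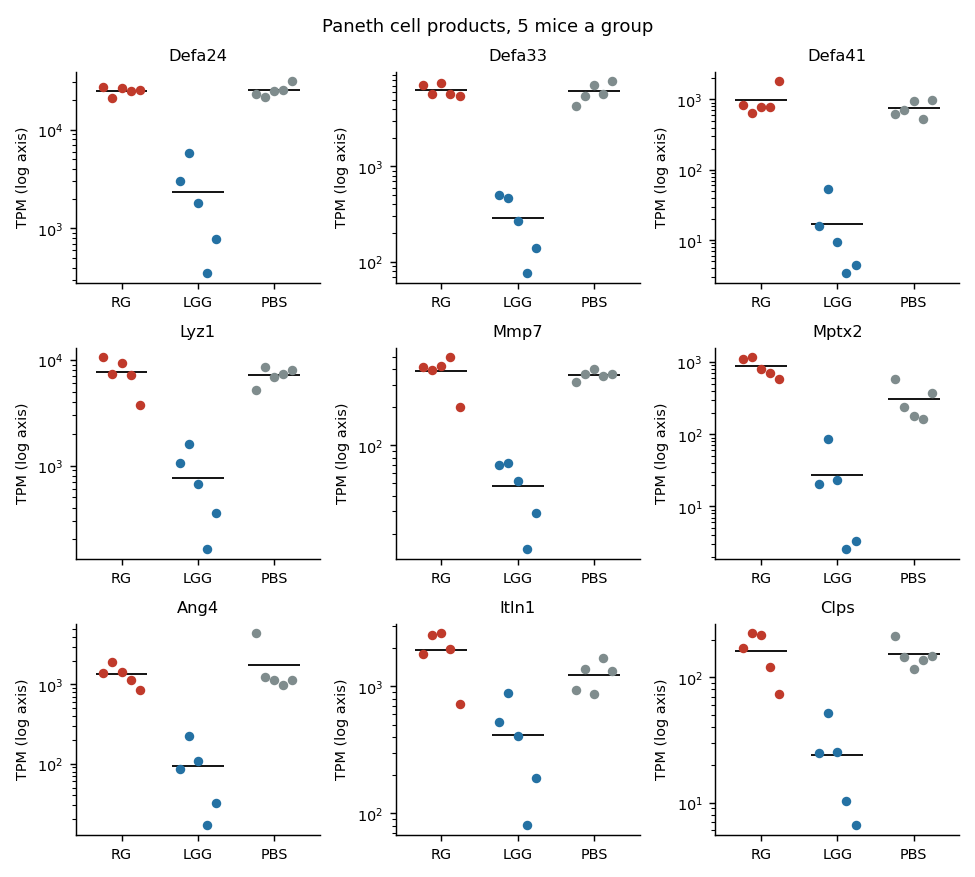
TPM of 9 Paneth cell genes on log axes in RG, LGG and PBS mice. Points are mice and horizontal lines are group means (n = 5). RG mice lie near the PBS mice for the defensins, Lyz1 and Mmp7, and the LGG mice spread widely below them, for Defa24 with 355 TPM in mouse 4 and 5789 TPM in mouse 2.

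The alpha-defensin share and Car1 ran in opposite order over the LGG mice. Their alpha-defensin share was 2.82% in mouse 2, 1.49% in mouse 1, 0.997% in mouse 3, 0.428% in mouse 5 and 0.217% in mouse 4. Car1, carbonic anhydrase 1, which is strong in colon epithelium, was at 12.1, 22.0, 392, 2549 and 25134 TPM in the same mice. In RG mice Car1 was at 1.06, 3.27, 943, 1.23 and 6.66 TPM, and in PBS mice it reached 620.2 TPM. LGG mouse 2, with 12.1 TPM of Car1, held 5789 TPM of Defa24, against at least 20779 TPM in every RG mouse. RG mouse 3, with 943 TPM of Car1, held 26267 TPM. LGG mice 4 and 5 were also left out together, an omission chosen after the data were seen. The differences were then 2.97 for Defa24, 3.97 for Defa33, 5.41 for Defa41, 2.80 for Lyz1, 4.56 for Mptx2 and 0.87 for Defa43, all past the threshold. The part of colon-biased expression in the Paneth difference was not tested.

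Goblet cell genes were higher in RG than in LGG mice, less steeply. Of 9 tested, 5 were higher and 0 lower, on the deposited scale and on all 3 scales, with a median difference of 0.87. Of all genes, 8.19% were higher on either count. Spink4, a small secreted inhibitor of goblet cells, had 2285, 1736, 2095, 2548 and 2391 TPM in RG mice and 714, 801, 762, 1019.8 and 815 TPM in LGG mice (1.42 ± 0.21, adjusted p = 5.58e-05). The lowest RG mouse was above the highest LGG mouse. Tff3, trefoil factor 3, had 11419, 6014, 10364, 13841 and 10628 TPM in RG mice and 8540.1, 6686, 3076, 4031 and 7134 TPM in LGG mice (0.87 ± 0.26, adjusted p = 0.00829), and RG mouse 2 was inside the LGG range. Agr2, the disulphide isomerase needed for mucin folding, averaged 1206 ± 344 TPM in RG and 627 ± 255 TPM in LGG mice (1.04 ± 0.32, adjusted p = 0.00983). In PBS mice Spink4, Tff3 and Agr2 averaged 3644 ± 1633, 14043 ± 1836.5 and 1731 ± 419 TPM, above the RG means. The chemokines Ccl6 and Ccl9 of the same list had differences of 1.33 ± 0.25 and 0.90 ± 0.19 (adjusted p = 0.000315 and 0.000579). Spink4 and Tff3 are short transcripts, and removing the trend of the differences with transcript length and GC content gave -0.20 for Spink4 and -0.38 for Tff3, against -0.51 for all genes.

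Defence genes that epithelium induces on contact with bacteria were mixed. Of 12 tested, 2 were higher (Reg3b and Lcn2) and 4 lower in RG mice on the deposited scale, and 2 were higher and 1, Ccl20, lower on all 3 scales; the median was -0.31 and changed sign to 0.30 with median-of-ratios factors. Reg3b, a lectin that binds bacteria, had 6725, 17149, 7912, 10109 and 2685 TPM in RG mice and 2588, 1341, 3538, 4589 and 7146 TPM in LGG mice (1.19 ± 0.44, adjusted p = 0.0287). The groups overlapped, and the call was lost without RG mouse 2 or 4 or LGG mouse 1 or 2, with differences of 0.86 to 1.10 in those fits. Reg3g, its close relative, had 1446, 4819.6, 2272, 1529.8 and 559 TPM in RG mice and 824, 547, 589, 1088 and 1649 TPM in LGG mice, a difference of 0.97 ± 0.44 that did not pass (adjusted p = 0.068), but did with median-of-ratios factors (1.63, adjusted p = 0.00558).

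Lcn2, lipocalin 2, was low throughout but did not overlap, at 1.33, 2.16, 2.01, 1.59 and 1.91 TPM in RG mice and 1.01, 0.430, 0.677, 0.803 and 1.19 TPM in LGG mice (0.63 ± 0.17, adjusted p = 0.00455). Ccl20, the chemokine that draws CCR6-bearing lymphocytes, had 1.08, 0.649, 0.781, 0.194 and 0.796 TPM in RG mice and 3.64, 3.91, 3.02, 2.06 and 1.50 TPM in LGG mice (-1.15 ± 0.26, adjusted p = 0.00114). Every RG mouse was below every LGG mouse for Ccl20. Nlrp6, an inflammasome sensor of the epithelium, averaged 41.9 ± 6.34 TPM in RG, 88.0 ± 22.6 TPM in LGG and 24.1 ± 3.31 TPM in PBS mice (-1.03 ± 0.17 for RG against LGG, adjusted p = 0.000117; adjusted p = 0.051 with upper-quartile factors). Nos2, inducible nitric oxide synthase, had 9.79 ± 4.26 TPM in RG, 7.40 ± 2.85 TPM in LGG and 1.62 ± 0.552 TPM in PBS mice, and the difference between the colonized groups of 0.35 ± 0.31 did not pass (adjusted p = 0.346; it did with median-of-ratios factors, at 0.91 and adjusted p = 0.0141).

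The transport of IgA rests on Jchain, which plasma cells use to join IgA, and on Pigr, the epithelial receptor that carries it to the lumen. Jchain had 126, 334, 84.9, 182 and 108 TPM in RG mice and 57.3, 126, 37.7, 18.9 and 61.9 TPM in LGG mice, a difference of 1.53 ± 0.52 (adjusted p = 0.0172), whose call was lost without RG mouse 2, at 1.24. Pigr had 171, 443, 187, 159 and 117 TPM in RG mice and 217, 298, 268, 957 and 386 TPM in LGG mice, and its difference of -0.92 ± 0.46 did not pass (adjusted p = 0.0961). The highest Pigr values were those of RG mouse 2 among RG mice and of LGG mouse 4 among LGG mice.

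Genes of MHC class I presentation were lower in RG mice on the deposited scale in 11 of 16 tested, with 0 higher, and 2 of the 16 were lower on all 3 scales, against 53.5% and 13.8% of all genes. These were Tapbp, which holds class I molecules at the peptide transporter, and Erap1, which trims the peptides. Tapbp had 98.6, 212, 125, 64.2 and 73.7 TPM in RG mice and 217, 259, 290.1, 242 and 223 TPM in LGG mice (-1.22 ± 0.25, adjusted p = 0.000607). Erap1 averaged 14.98 ± 4.42 TPM in RG and 30.6 ± 2.34 TPM in LGG mice (-1.02 ± 0.19, adjusted p = 0.000262). H2-K1, a classical class I heavy chain, had 879, 1675, 941, 462 and 493 TPM in RG mice and 1588, 1679, 2142, 1971 and 1707 TPM in LGG mice (-1.18 ± 0.28, adjusted p = 0.00148). H2-K1 did not pass with median-of-ratios factors (adjusted p = 0.0788). RG mouse 2 alone reached the LGG range for H2-K1, and 4 RG mice were below all LGG mice.

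MHC class II genes gave 0 calls among 4 tested in limma (0 at an unadjusted p under 0.05, 0 with median-of-ratios factors) and T cell genes gave 0 among 16 (1 unadjusted, 1 with median-of-ratios factors). Cd74, the class II invariant chain, had 373, 2301, 169, 126 and 192 TPM in RG mice and 437, 989, 580.0, 169 and 197 TPM in LGG mice (-0.25 ± 0.66, adjusted p = 0.766), and its sign turned with median-of-ratios factors (0.41) and without RG mouse 4 (0.090) or LGG mouse 2 (0.093). Cd3d, a chain of the T cell receptor complex, had 4.19, 45.5, 2.10, 2.57 and 3.59 TPM in RG mice and 3.96, 5.33, 4.65, 1.32 and 1.66 TPM in LGG mice (0.70 ± 0.61, adjusted p = 0.342; -0.0087 without RG mouse 2). The 20 listed T cell genes summed to 992 TPM in RG mouse 2 and to 45.1 to 80.2 TPM in the other 4 RG mice, against 43.6 to 159.6 TPM in LGG mice. The part of lymphoid tissue in the values of RG mouse 2 was not tested. Among interferon-stimulated genes, 6 of 19 were lower and 1, Mx1, was higher on the deposited scale, while 11 were higher and 1 lower with median-of-ratios factors; the median difference was 0.45 as deposited and 0.84 with these factors. Lgals3bp was lower on all 3 scales, with 74.3 ± 31.4 TPM in RG and 178 ± 23.5 TPM in LGG mice (-1.33 ± 0.24, adjusted p = 0.000202). Mx1 was at most 3.82 TPM in any RG or LGG mouse, and its call (0.68 ± 0.26, adjusted p = 0.0332) was lost without RG mouse 5 or LGG mouse 1, 2 or 4, at 0.42 to 0.68.

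**Figure D3:**
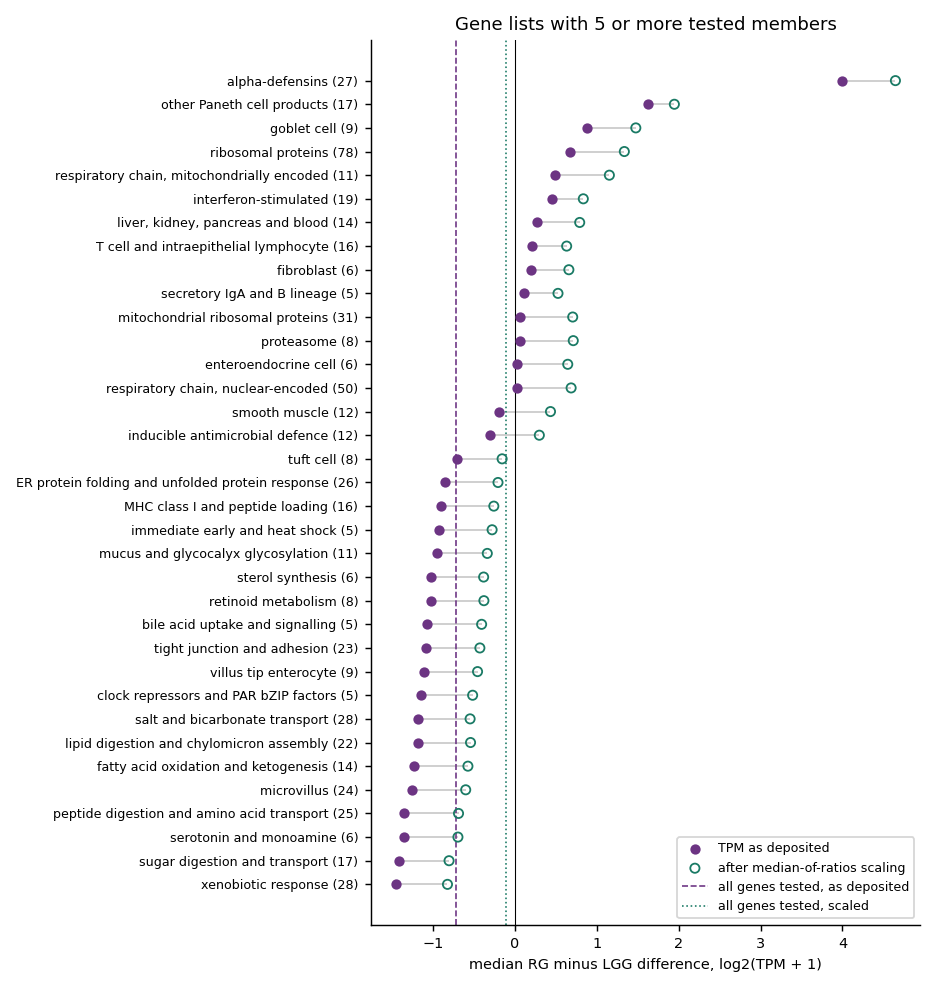
Median difference between RG and LGG mice for each gene list with at least 5 tested members, on the log2(TPM + 1) scale. Filled points are TPM as deposited and open points are after median-of-ratios scaling; the number of tested members is in brackets and vertical lines mark the median of all genes tested on each scale (-0.72 and -0.10). Alpha-defensins lie at 4.00, and the lists of the absorptive enterocyte lie below the median of all genes on both scales.

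The absorptive enterocyte carries a brush border of microvilli built on actin bundles. Of 24 microvillus genes tested, 23 were lower in RG mice and 0 higher, and 16 were lower on all 3 scales. Of all genes, 53.5% were lower, and 13.8% on all 3 scales. Their median difference was -1.25, against -0.72 for all genes, and -0.60 against -0.10 with median-of-ratios factors. In 21 of the 24, every RG mouse was below every LGG mouse, which held for 36.4% of all genes. Vil1, villin, the bundling protein of the microvillus core (chromosome 1, 74409376 to 74435559), had 466, 519, 535, 486 and 700.1 TPM in RG mice, 1387, 1489.9, 1443, 1479 and 1429.8 TPM in LGG mice and 331, 324, 268, 334 and 371 TPM in PBS mice (-1.43 ± 0.13 for RG against LGG, adjusted p = 3.73e-06). The LGG mice differed little from each other, and the RG mice lay between the LGG and PBS mice without overlapping either. Ezr, ezrin, which ties actin to the membrane, had 354 ± 46.1 TPM in RG and 945 ± 56.1 TPM in LGG mice (-1.42 ± 0.13, adjusted p = 4.61e-06). Cdhr2, a cadherin that links microvillus tips, differed by -1.50 ± 0.14 and Eps8, an actin capping protein, by -1.18 ± 0.12 (adjusted p = 4.74e-06 and 6.18e-06).

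Peptide digestion and amino acid uptake moved alike. Of 25 genes tested, 24 were lower and 0 higher in RG mice, and 17 were lower on all 3 scales, with a median of -1.35. Over all genes the shares lower were 53.5% and 13.8%. Anpep, aminopeptidase N (chromosome 7, 79821803 to 79861059), had 1137, 1691, 1329, 1321 and 1223 TPM in RG mice and 3725, 4921, 3995, 3138 and 3630.1 TPM in LGG mice (-1.53 ± 0.16, adjusted p = 6.88e-06). Enpep, glutamyl aminopeptidase, differed by -1.34 ± 0.13, and the transporters Slc3a1, for dibasic amino acids and cystine, and Slc6a19, for neutral amino acids, by -1.40 ± 0.15 and -1.35 ± 0.16 (adjusted p = 5.71e-06, 7.85e-06 and 1.21e-05). Ace, angiotensin-converting enzyme, a brush border dipeptidase, had 64.4, 66.6, 75.3, 52.0 and 81.4 TPM in RG mice and 249.5, 865, 267, 99.5 and 133 TPM in LGG mice (-1.81 ± 0.42, adjusted p = 0.00157). The groups did not overlap for any of these 5 genes, and LGG mouse 2 was the highest mouse for Ace.

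Of 17 genes of sugar digestion and transport, 16 were lower and 0 higher on the deposited scale, and 4 were lower on all 3 scales. In 5 of the 17 every RG mouse was below every LGG mouse, against 36.4% of all genes. Over all genes the shares lower were 53.5% and 13.8%. Slc5a1, the sodium-glucose cotransporter SGLT1 (chromosome 5, 33104219 to 33162870), had 174, 238, 296, 209 and 196 TPM in RG mice and 819, 1358, 821, 486 and 618 TPM in LGG mice (-1.81 ± 0.23, adjusted p = 2.08e-05). Its relative Slc5a4a had 18.9, 13.6, 13.6, 14.98 and 10.4 TPM in RG mice and 52.3, 166, 35.4, 18.8 and 59.4 TPM in LGG mice (-1.79 ± 0.40, adjusted p = 0.00112), with LGG mouse 4 at the top of the RG range. Mgam, maltase-glucoamylase, averaged 82.3 ± 25.5 TPM in RG and 233 ± 29.8 TPM in LGG mice (-1.54 ± 0.19, adjusted p = 1.63e-05). Slc37a4, the glucose-6-phosphate carrier of the endoplasmic reticulum, differed by -1.19 ± 0.19 on the deposited scale (adjusted p = 9.65e-05) and also passed on the other scales, while Treh, trehalase, at -1.31 ± 0.23 (adjusted p = 0.000199), did not pass on all 3.

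Lct and Sis, the disaccharidases lactase and sucrase-isomaltase, were more scattered. Lct had 11.4, 2.64, 16.0, 9.88 and 36.8 TPM in RG mice and 87.5, 489, 41.6, 3.32 and 23.3 TPM in LGG mice, and the difference of -1.85 ± 0.94 did not pass (adjusted p = 0.103). LGG mouse 2 held by far the most and LGG mouse 4 less than 4 of the 5 RG mice. Sis had 219, 148, 189, 382 and 364 TPM in RG mice and 697, 759, 722, 349 and 688 TPM in LGG mice (-1.35 ± 0.26, adjusted p = 0.000306; not past the threshold with median-of-ratios factors, adjusted p = 0.0724), and LGG mouse 4 alone was inside the RG range.

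Lipid digestion and chylomicron assembly gave 16 lower and 1 higher of 22 tested, with 6 lower and 1 higher on all 3 scales. Over all genes the shares lower were 53.5% and 13.8%. The higher gene was Clps, described above. Apob, the structural protein of the chylomicron (chromosome 12, 7977648 to 8016835), had 88.8, 71.9, 93.8, 109.8 and 161 TPM in RG mice and 359, 311, 405, 296 and 285 TPM in LGG mice (-1.69 ± 0.19, adjusted p = 1.06e-05). Alpi, intestinal alkaline phosphatase, had 229.9 ± 43.9 TPM in RG and 664 ± 148 TPM in LGG mice (-1.52 ± 0.21, adjusted p = 3.04e-05). Acsl5, an acyl-CoA synthetase, and Slc27a4, a fatty acid transport protein, differed by -1.43 ± 0.21 and -1.28 ± 0.19 (adjusted p = 4.97e-05 and 5.06e-05). For these 4 genes every RG mouse was below every LGG mouse. That held for 8 of the 22 genes of the list and for 36.4% of all genes.

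**Figure D4:**
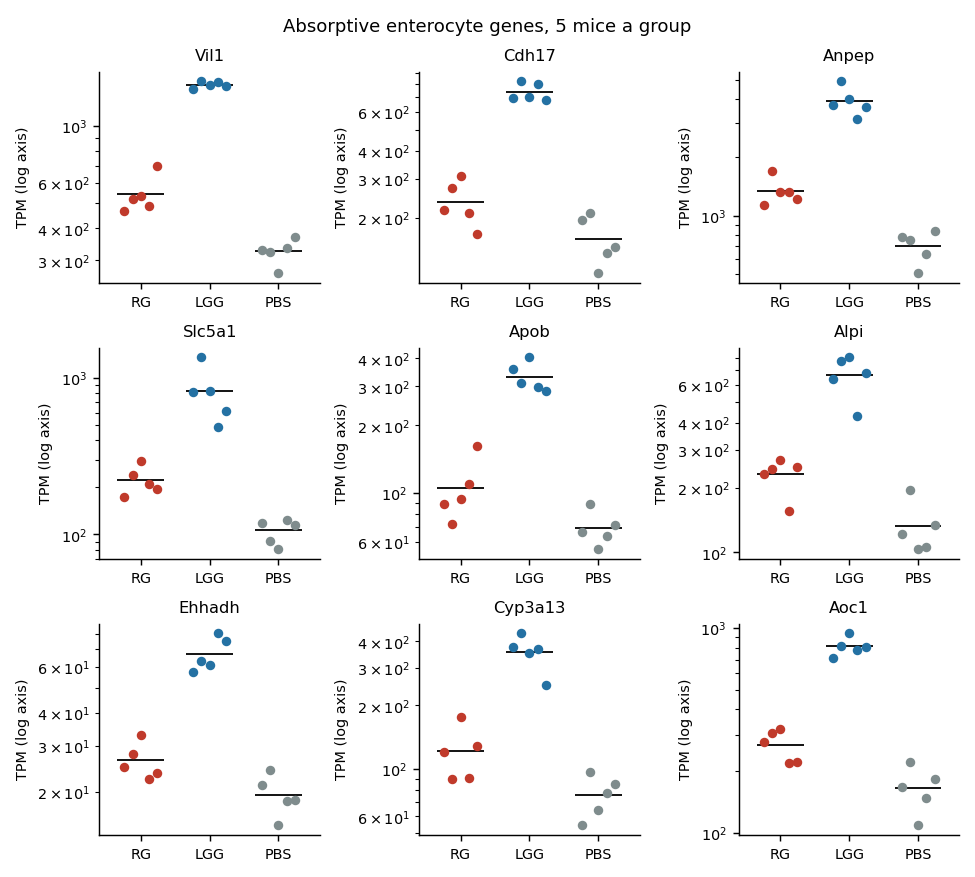
TPM of 9 absorptive enterocyte genes on log axes in RG, LGG and PBS mice. Points are mice and horizontal lines are group means (n = 5). For all 9 genes every RG mouse is below every LGG mouse, which held for 36.4% of all genes tested. The 9 were picked from several lists, and the enterocyte genes Lct and Sis, whose groups overlapped, are not shown. Vil1 lies at 466 to 700 TPM in RG and 1387 to 1490 TPM in LGG mice.

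Oxidation of fatty acids was lower in RG mice in 13 of 14 genes tested, with 0 higher, and in 8 on all 3 scales. Over all genes the shares lower were 53.5% and 13.8%. Ehhadh, the peroxisomal bifunctional enzyme, had 24.8, 27.9, 33.0, 22.4 and 23.5 TPM in RG mice and 57.2, 63.4, 60.9, 80.7 and 75.2 TPM in LGG mice (-1.33 ± 0.15, adjusted p = 1.06e-05). Acaa1a, the thiolase that ends the same peroxisomal pathway, differed by -1.11 ± 0.17, and Cpt2, which releases acyl-CoA inside mitochondria, by -1.27 ± 0.20 (adjusted p = 5.58e-05 and 6.50e-05). All 6 genes of sterol synthesis and its control that were tested were lower on the deposited scale and 1 on all 3 scales.

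Enzymes and pumps for foreign compounds were lower in RG mice in 24 of 28 tested, with 0 higher, and in 15 on all 3 scales. The shares over all genes were 53.5% and 13.8% lower. The median difference of these enzymes and pumps was -1.45. Abcb1a, the P-glycoprotein efflux pump (chromosome 5, 8660077 to 8748575), had 60.8, 58.5, 72.3, 86.0 and 60.1 TPM in RG mice and 192, 148, 234, 570.4 and 311 TPM in LGG mice (-1.94 ± 0.26, adjusted p = 2.85e-05). Its highest values were those of LGG mice 4 and 5. Cyp3a13, a drug-oxidizing cytochrome, had 120.2, 89.4, 176, 91.3 and 129 TPM in RG mice and 378, 436, 354, 369.8 and 250.0 TPM in LGG mice (-1.58 ± 0.21, adjusted p = 2.56e-05). Por, the electron donor of these cytochromes, Cyp2d26 and Ugt2b34, a glucuronosyltransferase, differed by -1.36 ± 0.18, -1.47 ± 0.20 and -1.36 ± 0.18 (adjusted p = 2.84e-05, 2.77e-05 and 2.84e-05). Cyp2c65 and Ugt1a7c were among the 12 largest decreases, at -1.84 ± 0.43 and -1.84 ± 0.34, and LGG mouse 4 held the most of both, 505 and 271 TPM. Ces1g, a carboxylesterase, had 9.71, 8.54, 30.9, 12.5 and 6.84 TPM in RG mice and 28.1, 14.3, 46.1, 307 and 63.5 TPM in LGG mice (-2.05 ± 0.59, adjusted p = 0.00681; not past the threshold with median-of-ratios factors, adjusted p = 0.0533), and its difference was -1.41 without LGG mouse 4.

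Of 8 retinoid metabolism genes tested, 7 were lower on the deposited scale and 1 on all 3 scales, against 53.5% and 13.8% of all genes. The 1 was Aldh1a1, a retinaldehyde dehydrogenase, with 169, 189, 267, 175 and 124 TPM in RG mice and 338, 294, 417, 1130.2 and 637 TPM in LGG mice (-1.46 ± 0.30, adjusted p = 0.000536). Of 6 genes that handle serotonin and other amines, 5 were lower on the deposited scale and the same number on all 3 scales. Slc6a4, the serotonin transporter, had 13.0, 14.8, 17.3, 11.1 and 13.6 TPM in RG mice and 36.4, 53.1, 27.8, 21.9 and 32.2 TPM in LGG mice (-1.19 ± 0.19, adjusted p = 9.68e-05). Aoc1, diamine oxidase, which degrades histamine, had 278, 307, 322, 219 and 222 TPM in RG mice and 717, 820.2, 941, 784 and 804 TPM in LGG mice (-1.60 ± 0.18, adjusted p = 7.61e-06). The groups did not overlap for either. Ddc, the decarboxylase that makes serotonin, and Maoa, which breaks it down, differed by -1.26 ± 0.17 and -1.45 ± 0.25 (adjusted p = 2.85e-05 and 0.000132).

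Salt and bicarbonate transport was lower in RG mice in 23 of 28 genes tested, with 0 higher, and in 9 on all 3 scales. The shares over all genes were 53.5% and 13.8% lower. Atp1b1, a beta subunit of the sodium pump, had 393, 553, 585, 438 and 332 TPM in RG mice and 1132, 1429, 1209.8, 1486 and 1210.4 TPM in LGG mice (-1.51 ± 0.18, adjusted p = 1.19e-05). Gucy2c, the receptor of guanylin, differed by -1.50 ± 0.16, and Slc26a6, an anion exchanger, by -1.30 ± 0.15 (adjusted p = 6.88e-06 and 1.06e-05). The groups did not overlap for these 3 genes. Slc9a3, the sodium-proton exchanger NHE3, was among the largest decreases but scattered, with 0.935, 1.33, 6.65, 1.32 and 3.91 TPM in RG mice and 4.51, 26.3, 5.31, 67.1 and 6.56 TPM in LGG mice (-2.06 ± 0.61, adjusted p = 0.00805; not past the threshold with median-of-ratios factors, adjusted p = 0.0526). Slc26a3, the chloride-bicarbonate exchanger that is strong in colon, had 32.4, 29.0, 37.4, 33.1 and 48.4 TPM in RG mice and 65.8, 70.7, 64.2, 418 and 99.5 TPM in LGG mice (-1.53 ± 0.40, adjusted p = 0.00333; not past the threshold with median-of-ratios factors, adjusted p = 0.0702). Every RG mouse was below every LGG mouse, and without LGG mice 4 and 5 its difference was -0.89.

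Other genes were high in the LGG libraries with much Car1. Selenbp1, a selenium-binding protein, had 39.2, 78.3, 117, 41.4 and 32.1 TPM in RG mice and 73.8, 69.2, 111, 2088 and 313 TPM in LGG mice (-1.90 ± 0.73, adjusted p = 0.033). Its call was lost without RG mouse 1, 2, 4 or 5 or LGG mouse 5, at -2.03 to -1.72. The difference was -1.07 without LGG mouse 4, and without LGG mice 4 and 5 it was -0.59 and no longer passed (adjusted p = 0.198). Dmbt1, a mucosal scavenger protein, had 20.1, 42.0, 34.1, 27.9 and 16.0 TPM in RG mice and 32.7, 28.3, 58.9, 849 and 124 TPM in LGG mice (-1.73 ± 0.72, adjusted p = 0.0467), a call lost without RG mouse 1, 2, 4 or 5 or LGG mouse 4 or 5, at -1.89 to -0.92, the smallest without LGG mouse 4. Abcc3, a basolateral exporter of bile acids and conjugates, had 8.53 ± 1.59 TPM in RG and 52.6 ± 77.5 TPM in LGG mice, a difference of -1.61 ± 0.54 that was -0.92 without LGG mouse 4. Selenbp1, Dmbt1 and Abcc3 did not pass with median-of-ratios factors (adjusted p = 0.145, 0.187 and 0.127). All 5 tested genes of bile acid uptake and signalling were lower on the deposited scale and 0 on all 3 scales (53.5% and 13.8% of all genes). Gpr39, a zinc-sensing receptor, was among the largest decreases, with 4.86, 1.96, 6.17, 2.43 and 4.77 TPM in RG mice and 14.0, 31.2, 13.6, 14.6 and 12.7 TPM in LGG mice (-1.85 ± 0.28, adjusted p = 5.65e-05), and LGG mouse 2 held the most.

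Cell junction genes were lower in RG mice in 21 of 23 tested, with 0 higher, and in 12 on all 3 scales. Over all genes the shares lower were 53.5% and 13.8%. Cdh17, the intestinal cadherin (chromosome 4, 11758147 to 11817895), had 218, 272, 308, 209.7 and 168 TPM in RG mice and 695, 827, 700.4, 805 and 683 TPM in LGG mice (-1.68 ± 0.19, adjusted p = 7.89e-06). Cdh1, E-cadherin, had 90.2, 129, 127, 101 and 87.5 TPM in RG mice and 293, 300.1, 329, 471 and 315 TPM in LGG mice (-1.67 ± 0.21, adjusted p = 2.23e-05). Jup, plakoglobin, and Pkp3, a plakophilin of desmosomes, differed by -1.35 ± 0.17 and -1.17 ± 0.14 (adjusted p = 1.65e-05 and 1.31e-05). Among 11 genes of mucin-type glycosylation and the glycocalyx, 9 were lower and 3 were lower on all 3 scales. Muc13, a membrane mucin, had 539 ± 119.8 TPM in RG and 1300.1 ± 176 TPM in LGG mice (-1.29 ± 0.18, adjusted p = 2.88e-05). B4galnt2, which makes the Sda blood group glycan, had 138 ± 48.9 TPM in RG and 422 ± 194 TPM in LGG mice (-1.58 ± 0.26, adjusted p = 1.00e-04). Of 9 genes of the villus tip, 7 were lower and 3 on all 3 scales; Krt20, a keratin of mature epithelium, differed by -1.22 ± 0.15 (adjusted p = 2.05e-05).

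The circadian clock is a loop in which BMAL1 and CLOCK bind E-boxes and drive their own repressors and the PAR bZIP factors Dbp and Tef, which pass the rhythm on to metabolic genes. Of 5 tested members, 5 were lower in RG mice on the deposited scale, and 2, Dbp and Nr1d1, were lower on all 3 scales. Over all genes the shares lower were 53.5% and 13.8%. Dbp (chromosome 7, 45705088 to 45710203) had 7.14, 14.3, 5.42, 10.6 and 10.4 TPM in RG mice, 31.4, 68.4, 57.9, 27.0 and 35.4 TPM in LGG mice and 1.15, 1.26, 2.23, 2.18 and 2.68 TPM in PBS mice, with a difference between RG and LGG of -2.07 ± 0.28 (adjusted p = 2.79e-05). The 3 groups did not overlap, with RG mice between LGG and PBS mice. Nr1d1, the repressor REV-ERB alpha (chromosome 11, 98767932 to 98775333), had 20.8, 32.7, 30.4, 33.5 and 48.4 TPM in RG mice, 73.2, 80.8, 93.6, 118 and 82.0 TPM in LGG mice and 6.37, 8.67, 14.3, 18.0 and 18.5 TPM in PBS mice (-1.43 ± 0.26, adjusted p = 0.000251). All RG mice were again below all LGG mice and above all PBS mice.

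Tef had 9.26, 11.7, 6.97, 8.51 and 15.5 TPM in RG mice and 18.7, 25.9, 25.8, 25.8 and 21.4 TPM in LGG mice (-1.14 ± 0.22, adjusted p = 0.000315), without overlap. Nr1d2, the second REV-ERB, had 24.7, 21.4, 20.6, 25.4 and 26.8 TPM in RG mice and 37.9, 39.7, 37.5, 25.6 and 35.9 TPM in LGG mice (-0.54 ± 0.20, adjusted p = 0.0297), and its sign turned with median-of-ratios factors (0.10); the call was lost without RG mouse 2 or 3 or LGG mouse 1, 2, 3 or 5, at -0.53 to -0.49. Ciart, a repressor of CLOCK and BMAL1, was at most 2.24 TPM in any mouse, at 0.610 ± 0.375 TPM in RG and 1.47 ± 0.586 TPM in LGG mice (-0.61 ± 0.21, adjusted p = 0.0167), and its call was lost without LGG mouse 4, at -0.51. Of 4 other clock genes, Usp2, Csnk1d and Wee1 were lower, at -1.07 ± 0.20, -0.83 ± 0.17 and -0.74 ± 0.18 (adjusted p = 0.000289, 0.000677 and 0.00172), 0 of them on all 3 scales, and Nfil3, which opposes the PAR bZIP factors at their sites, had a difference of 0.30 ± 0.32 that did not pass (adjusted p = 0.451; it did with median-of-ratios factors, at 0.86 and adjusted p = 0.0139). The labels give no time of dissection for either group, so a difference in the hour of sampling and a difference in the clock cannot be told apart.

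The E-box CACGTG was searched in the 160 bases before the annotated start of these 5 genes, on RefSeq promoters of GRCm38.p6. It was present in 2 of the 5, Ciart and Tef, and in 4.50% of all 32851 windows. Ciart held 3 copies, shown in capitals within a stretch at chr3:95882254-95882353 (minus strand).
Ciart: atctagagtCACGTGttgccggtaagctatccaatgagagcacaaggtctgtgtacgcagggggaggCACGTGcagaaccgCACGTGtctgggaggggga
Dbp, the member with the largest difference, held no CACGTG in this window, and intragenic sites were not searched.

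**Figure D5:**
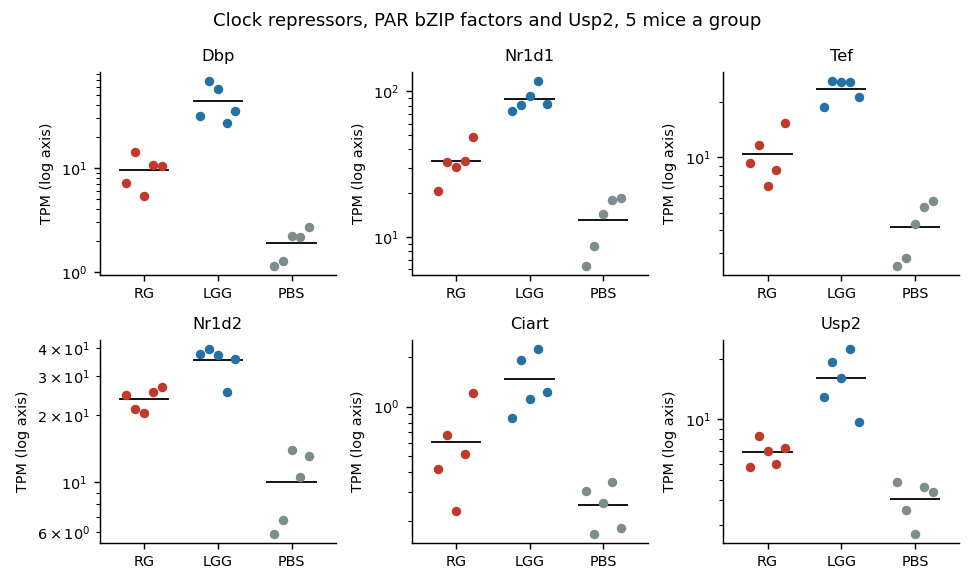
TPM of 5 clock repressors and PAR bZIP factors and of Usp2 on log axes in RG, LGG and PBS mice. Points are mice and horizontal lines are group means (n = 5). Dbp lies at 5.42 to 14.3 TPM in RG, 27.0 to 68.4 TPM in LGG and 1.15 to 2.68 TPM in PBS mice, while Nr1d2 and Ciart overlap between RG and LGG mice.

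Genes of the cytosolic ribosome were higher in RG mice in 60 of 78 tested, with 0 lower, on the deposited scale and on all 3 scales. Of all genes, 8.19% were higher on either count. The median difference of the ribosomal genes was 0.67, against -0.72 for all genes. In 54 of them every RG mouse was above every LGG mouse, which held for 4.08% of all genes. Rps15a had 193, 191, 160.2, 243 and 261 TPM in RG mice, 118, 122, 90.6, 81.0 and 89.5 TPM in LGG mice and 314, 218, 336, 264 and 302 TPM in PBS mice (1.05 ± 0.17, adjusted p = 9.42e-05). Rpl26, Rps13 and Rpl27a differed by 0.90 ± 0.15, 0.83 ± 0.14 and 0.78 ± 0.14 (adjusted p = 0.000141, 0.000129 and 0.00017). Transcript length, taken here as that of the longest transcript annotated for a gene, moved with the comparison as a whole. The median transcript length was 1141 bases for the genes higher in RG mice on all 3 scales, 3322.5 bases for those lower and 3003 bases for all genes. Across 3527 genes, which are not independent replicates, the difference had a Spearman correlation of -0.33 with transcript length and -0.24 with GC content. With these trends removed the median of the ribosomal genes was 0.17, against -0.51 for all genes, and that of the alpha-defensins was 2.37. The part of length, and of RNA quality, in these differences was not tested.

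Nuclear-encoded respiratory chain genes were split. Of 50 tested, 3 were higher and 7 lower on the deposited scale, and 35 higher and 4 lower with median-of-ratios factors, and 3 were higher on all 3 scales (Ndufa4, Atp5e and Atp5mpl) and 4 were lower on all 3 (Sdha, Atp5a1, Ndufv1 and Ndufs1). Atp5a1, the alpha subunit of ATP synthase, had 314, 600.0, 506, 297 and 241 TPM in RG mice and 692, 839, 749, 1299 and 858 TPM in LGG mice (-1.23 ± 0.25, adjusted p = 0.000492). Sdha, a subunit of succinate dehydrogenase, had 111 ± 40.8 TPM in RG and 259.9 ± 90.5 TPM in LGG mice (-1.23 ± 0.25, adjusted p = 0.000465). Atp5e, the epsilon subunit of the same synthase, had 2544, 1490.1, 2043, 3742 and 3265 TPM in RG mice and 1684, 1798, 1659, 1083 and 1539 TPM in LGG mice (0.70 ± 0.23, adjusted p = 0.0138). RG mouse 2 was below 4 of the LGG mice for Atp5e. The calls of Ndufa4 and Atp5mpl, at 0.69 ± 0.25 and 0.59 ± 0.24, were each lost on leaving out 1 library. For Ndufa4 these were RG mouse 4 or 5 and LGG mouse 3 or 4, at 0.51 to 0.62, and for Atp5mpl every RG or LGG mouse except RG mice 2 and 3, at 0.39 to 0.61. With the trends of length and GC content removed, Ndufa4 had -0.059 and Atp5mpl -0.41. Of 11 mitochondrially encoded genes, 0 passed in limma on the deposited scale (3 at an unadjusted p under 0.05) and 11 were higher with median-of-ratios factors, with a median difference of 0.49 on the deposited scale. Mitochondrial ribosomal proteins gave 3 higher and 1 lower of 31, and 29 higher with median-of-ratios factors, with Mrpl33 at 0.74 ± 0.22 (adjusted p = 0.00879).

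Protein folding in the endoplasmic reticulum was also split. Of 26 genes, 16 were lower on the deposited scale and 0 on all 3 scales, against 53.5% and 13.8% of all genes. On all 3 scales 5 were higher, against 8.19% of all genes. The higher genes were Sec61g, Sec61b, Ssr4 and Sec11c, small parts of the translocation and signal cleavage machinery, and Fkbp11, a folding enzyme of secretory cells. Fkbp11 had 14.5, 12.7, 15.1, 12.8 and 6.76 TPM in RG mice and 6.26, 6.73, 3.78, 4.66 and 6.46 TPM in LGG mice (1.01 ± 0.24, adjusted p = 0.00175), without overlap. Sec11c, a subunit of signal peptidase, differed by 0.66 ± 0.16 and Sec61g by 1.07 ± 0.29 (adjusted p = 0.00188 and 0.0045), while the calls of Sec61b and Ssr4, at 0.34 ± 0.13 and 0.33 ± 0.13, were each lost in 5 of the 10 fits without 1 library. For Sec61b these left out RG mouse 1 or 4 or LGG mouse 2, 3 or 4, at 0.27 to 0.33, and for Ssr4 RG mouse 1, 3 or 4 or LGG mouse 3 or 4, at 0.27 to 0.30. Sec61b had -0.40 with the trends of length and GC content removed. Sec61a1, the channel subunit, had 70.8 ± 29.4 TPM in RG and 139.6 ± 16.0 TPM in LGG mice (-1.05 ± 0.24, adjusted p = 0.00116), and Hsp90b1, a chaperone, differed by -0.97 ± 0.22 (adjusted p = 0.00117).

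Markers of the other cells that a piece of ileum holds, and lists of chromatin, proteasome and heat shock genes, varied in their calls. Of all genes 8.19% were higher and 53.5% lower on the deposited scale, and 13.8% were lower on all 3 scales. Smooth muscle gave 0 of 12 in limma (0 at an unadjusted p under 0.05), with a median of -0.20 that changed sign to 0.43, with 5 genes higher, under median-of-ratios factors. Endothelial and macrophage genes gave 0 of 3 each (1 each unadjusted, 3 each higher with median-of-ratios factors). Stem cell and Wnt target genes gave 0 of 4 (1 unadjusted, 2 higher with those factors) and cell cycle genes 0 of 4 (0 unadjusted, 2 higher with those factors). Most members of these lists could not be tested: the stem cell list holds 25 genes, cell cycle 36, macrophage 20 and endothelial 14. Chromatin regulators, given below, were 3 tested of 60. The counts therefore do not describe these cells or processes as a whole. Genes of liver, kidney, pancreas and blood gave 0 of 14 (0 unadjusted, 1 higher with those factors). Fibroblast genes gave 1 higher, Dpt, and 1 lower, Fbln1, of 6, at 0.61 ± 0.26 and -1.43 ± 0.38, and the call of Dpt was lost without RG mouse 2, 3 or 4 or LGG mouse 1, 2, 3 or 4, at 0.39 to 0.65. With median-of-ratios factors 3 fibroblast genes were higher and 0 lower, and Fbln1 did not pass (adjusted p = 0.0952). Chromatin regulators gave 3 lower of 3 and proteasome genes 3 lower of 8 on the deposited scale, and 0 on all 3 scales; 5 of the proteasome genes were higher with median-of-ratios factors. Tuft cell genes gave 5 lower of 8 on the deposited scale and 0 on all 3 scales, with Trpm5, the taste-transduction channel of these cells, at 3.66 ± 1.27 TPM in RG and 7.67 ± 3.46 TPM in LGG mice (-0.86 ± 0.26, adjusted p = 0.00749). Enteroendocrine genes gave 2 lower of 6, Chga and Scg2, at -0.90 ± 0.18 and -1.07 ± 0.22 (adjusted p = 0.000476 and 0.000584), and 0 on all 3 scales. Enteric neuron and glia genes gave 2 lower of 4, Tubb3 and Ret, at -1.16 ± 0.28 and -0.81 ± 0.20 (adjusted p = 0.00161 and 0.00187), of which Tubb3 was lower on all 3 scales. All 5 immediate early and heat shock genes tested were lower on the deposited scale and 0 on all 3, with Hspa1b at 5.85, 13.3, 8.48, 8.51 and 5.35 TPM in RG mice and 43.9, 9.81, 16.9, 35.1 and 21.2 TPM in LGG mice (-1.39 ± 0.39, adjusted p = 0.00541).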

How the data were processed

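RNA of 15 mouse ilea was sequenced, 5 each from RG, LGG and PBS mice. The authors deposited 1 table of TPM, with no counts, so depth is unknown. GRCm38 (mm10) is the build per the submitters' processing notes. For the aligner and for reads shared between genes, no detail was given in the sources used here. The listed genes summed to 480498 to 660553 TPM a library, so the table holds part of the genes that TPM was computed on. How the listed genes were chosen is not given in the sources used here. Shares of genes tested are therefore not shares of the genome. Of 4178 identifiers, 4173 were found in GENCODE M21 (GRCm38), 4159 of them protein coding.

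TPM were tested as log2(TPM + 1) with limma 3.58.1 (trend, robust; R 4.3.3), with all 15 libraries in 1 model, two-sided, Benjamini-Hochberg adjusted over 3530 genes at 0.05; every adjusted p of a gene is limma's. The design foresaw this test for normalized values. The fit was tested on simulated data. Library shares were compared by exact permutation over 252 splits. Alternatives were other scalings, pseudocounts, filters, library weights, trends removed, and libraries left out. Limma's p-values set a difference against the spread between mice within groups, estimated over all 3 groups. They do not account for housing, which cannot be told apart from the bacterium.

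The members and the 43 gene lists were chosen with earlier results of these data known. Named genes were the 12 largest changes in each direction with a mean TPM of at least 1, the 4 members of smallest p in each list, and 14 further genes listed in the design; predicted genes and receptor segments were left out. Defa24, Defa38, Defa42, Defa43, Rnase1, Itln1, Clps, Agr2, Dmbt1, Mx1, Sis, Car1, Nr1d2, Ndufa4, Atp5e, Atp5mpl, Sec61g, Sec61b, Ssr4, Sec11c and Fkbp11 were chosen after their values were seen. Some named genes are not reported here. Promoter sequences are from RefSeq (GRCm38.p6).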

Additional observations from a re-analysis of the deposited data

Results flagged for a closer look

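A library was picked out where it lay far from the other 4 of its group, with a gap to its nearest neighbour above 0.71 of the group's range; 256 groups were looked at, and chance picks about 1 in 20 of them. LGG mouse 4 was high in Slc26a3 (418 TPM), Gucy2c (217 TPM), Cdh1 (471 TPM) and Sdha (419 TPM), and low in Sis (349 TPM), Nr1d2 (25.6 TPM) and Mrpl33 (27.1 TPM). LGG mouse 2 was high in Cyp2d26 (496 TPM) and Gpr39 (31.2 TPM), and LGG mouse 3 was low in Agr2 (219 TPM). RG mouse 2 was high in Cd3d (45.5 TPM) and Hsp90b1 (305 TPM), and RG mouse 3 in Car1 (943 TPM). RG mouse 4 was low in Alpi (155 TPM) and Krt20 (906 TPM). RG mouse 5 was high in Defa41 (1824 TPM) and low in Mmp7 (200.2 TPM), Itln1 (725 TPM) and Fkbp11 (6.76 TPM). For Defa41, Mmp7, Gucy2c, Slc26a3, Cdh1, Sdha, Alpi, Krt20, Cyp2d26, Gpr39, Hsp90b1 and Fkbp11, every RG mouse still lay on 1 side of every LGG mouse. The cause of these single values was not tested.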

How the results depend on the processing

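The counts of genes were 2176 changed, 289 higher and 1887 lower in RG mice. Of the alternatives, the scalings and the weighting of libraries moved them by over 1.5 times: 1220 higher and 592 lower with median-of-ratios factors, 1250 higher and 495 lower with upper-quartile factors, and 547 higher with array weights. The same genes called in the same direction as reported were 881, 784 and 2153 in these fits. Leaving out 1 library gave 2017 to 2281 changed, 209 to 415 higher and 1807 to 1906 lower. The difference in alpha-defensin share ran from 11.3 to 12.2 percentage points without 1 library, that of the ribosomal share from 4.71 to 5.46, that of the listed genes from 10.1 to 11.9 and that of the mitochondrially encoded share from 0.971 to 4.18, the lowest without RG mouse 5. Of 120 named genes past the threshold, 107 stayed past it in each of the 10 fits without 1 library.

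Signs turned for Spink4 (-0.20), Tff3 (-0.38), Ndufa4 (-0.059), Atp5mpl (-0.41) and Sec61b (-0.40) with length and GC trends removed, with or without a replicate block. They turned for Cd74 (0.41 and 0.45) and Nr1d2 (0.10 and 0.14) with median-of-ratios and upper-quartile factors, for Cd74 also without RG mouse 4 or LGG mouse 2 (0.090 and 0.093; the range without 1 library was -0.95 to 0.093), for Cd3d without RG mouse 2 (-0.0087; range -0.0087 to 0.97), without RG mice 2 and 5 (-0.072) and without these and LGG mouse 4 (-0.27), and for Nos2 in the last 2 of these fits (-0.025 and -0.021). Cd74, Cd3d and Nos2 did not pass on the deposited scale, Nos2 did with median-of-ratios and upper-quartile factors (0.91 and 0.95), and the cause was not tested. The omission of LGG mice 4 and 5 together was chosen after the data were seen; it gave 202 higher and 1725 lower.

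Mouse numbers recur in the groups, and the labels do not state that they pair the mice. Deviations of same-numbered RG and LGG mice correlated at 0.22, -0.05, -0.32, -0.07 and -0.03, and 1 of 5 RG mice correlated best with its own number. A shared litter or order of processing was not tested. With mouse number as a replicate block, 2100 genes changed (240 higher, 1860 lower), and with length and GC trends removed as well 2145 did. TPM hold no depth, so counting error and detection limits are unknown. Copies of one family, the scale on which a share is read and transcript length limit what single differences show.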
